A study of Arabidopsis thaliana with 4 samples.

Results

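The oleosins are the small structural proteins that coat the oil bodies of plant seeds. Of the 6 oleosin genes of Arabidopsis thaliana considered, 5 had a probe set among the 22746 probe sets of the Affymetrix ATH1 arrays, and AT1G48990 had none listed in the annotation used here and was dropped. Of the 5, 3 are of the seed type, whose transcripts are found in maturing seeds. These are OLEO4 (AT3G27660), AT3G01570 (259167_at) and OLEO3 (AT5G51210, 248435_at). The platform annotation used here does not name the probe set of OLEO4, which was assigned to that gene when the members were chosen. AT3G18570 (256827_at) and AT2G25890 (266654_at) are of the seed and microspore type, whose transcripts are also found in developing pollen. The members were chosen by family and on the intensity differences between phyA phyB and wild type already seen for seed genes on these arrays, so their genotype differences are given as a description. Counts of members past limma's threshold are printed beside the share of all probe sets, and support nothing.

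An oil body is a droplet of triacylglycerol bounded by a single layer of phospholipid, in which oleosins are anchored by a long hydrophobic hairpin. Oleosins keep the droplets small and apart while the seed is dry, and they are degraded as the oil is used by the growing seedling. Oleosin genes of the seed type are transcribed during embryo maturation under abscisic acid and the maturation regulators, and their transcripts are normally lost around germination. The phytochromes phyA and phyB sense red and far-red light and promote germination.

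Total RNA was measured in dark-grown seedlings lacking phyA and phyB, a double mutant with the alleles phyA-211 and phyB-9 in the ecotype Columbia, and in those of the Columbia wild type, with 2 arrays for each genotype. Both genotypes were sown on 0.8% agar, chilled for 5 days at 6 °C, exposed to white light for 1 h at 22 °C and harvested after 3 days in darkness at 22 °C, so that both had seen light before the dark period. The double mutant carries its lesions in every cell and keeps the other phytochrome genes. The values are intensities on a linear scale, which are comparable between arrays for a given probe set but not between probe sets.

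Summed intensity was between 76027200 and 77974900 per array. Across the 13648 probe sets tested, array 1 of phyA phyB stood apart, with correlations of log2 values of 0.9 and 0.886 with the wild-type arrays and 0.917 with the other phyA phyB array. Array 2 of phyA phyB correlated at 0.947 and 0.936 with the wild-type arrays, close to the 0.95 between those 2 arrays. Probe sets are not independent replicates, and the correlations serve as a description. Each oleosin value is therefore given for both phyA phyB arrays separately. Of the marker genes considered for etiolated seedlings, 2 of 7 had a named probe set. PORB, a protochlorophyllide oxidoreductase gene, had intensities of 100743 and 62061.5 in phyA phyB, against 59614.5 and 63173.3 in the wild type. The expansin gene EXPA8 had 21226.4 and 22324.7 in phyA phyB, against 26681.5 and 24234.3 in the wild type. Both genes thus had signal on all 4 arrays. Of the anther, tapetum and pollen markers 0 of 7 had a probe set naming a single gene.

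**Figure D1:**
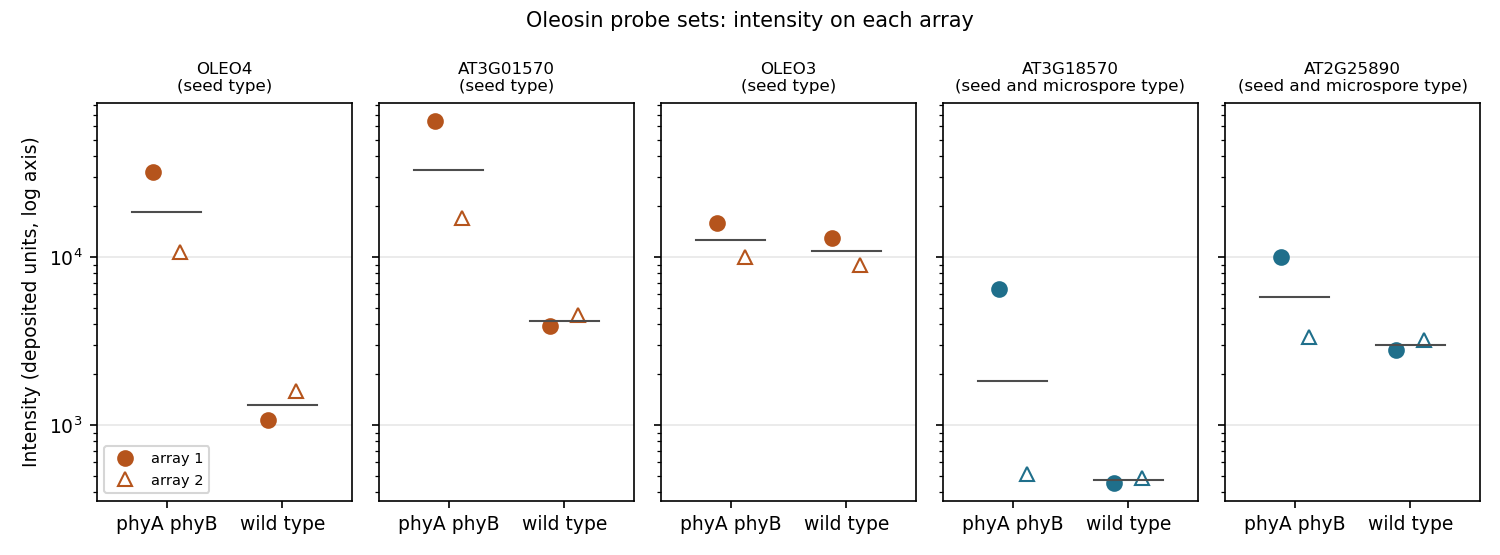
Intensity of the 5 oleosin probe sets on each array (log axis, deposited units), with phyA phyB left of the wild type. Filled circles are array 1 and open triangles array 2 of each genotype, and the horizontal line is their geometric mean (n = 2). Levels may be compared within a panel and not between panels. Both phyA phyB points lie clearly above the wild type for OLEO4 and AT3G01570, the groups interleave for OLEO3, and the seed and microspore type stands out on phyA phyB array 1 alone.

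Among the seed-type oleosins, OLEO4 and AT3G01570 were brighter on both phyA phyB arrays than on either wild-type array. OLEO4 had intensities of 31918.4 and 10654.4 in phyA phyB, against 1074.7 and 1601.1 in the wild type. The groups were far apart, since the dimmer phyA phyB array was 7.96-fold above the wild-type mean and the brighter one 23.9-fold. On the scale log2(intensity + 70.1), used from here on for all log2 values, it averaged 14.18 ± 1.11 in phyA phyB and 10.43 ± 0.39 in the wild type (SD, n = 2 each). The log2 difference was 3.74 (SE 0.45 from limma), which placed it as the 7th highest of the 13648 probe sets tested.

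AT3G01570, an oleosin of seed oil bodies, had intensities of 64132.9 and 17028.5 in phyA phyB, against 3873.1 and 4507 in the wild type. Here too the groups did not overlap, and the spread lay mostly within phyA phyB, whose arrays differed 3.77-fold. The log2 level averaged 15.02 ± 1.35 in phyA phyB and 12.05 ± 0.15 in the wild type (SD, n = 2 each). The log2 difference was 2.96 (SE 0.49), the 29th highest of all probe sets tested. The phyA phyB arrays were 15.3-fold and 4.06-fold above the wild-type mean of this gene.

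OLEO3, the remaining seed-type member, had overlapping signal in the genotypes. Its intensities were 15884.9 and 10073.7 in phyA phyB, against 13052.5 and 8945.2 in the wild type. The groups overlapped, because wild-type array 1 lay between the phyA phyB arrays. The log2 level averaged 13.64 ± 0.46 in phyA phyB and 13.41 ± 0.38 in the wild type (SD, n = 2 each), and the difference of 0.23 (SE 0.29) was smaller than either SD. OLEO3 ranked 3756th of the probe sets tested by its difference. On the 2 phyA phyB arrays it stood at 0.55 and -0.10 from the wild-type mean, so even its sign depended on the array.

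The 3 seed-type oleosins thus had unlike differences on these arrays. Relative to OLEO3, and each set against its own wild-type mean, OLEO4 was higher by 3.98 on phyA phyB array 1 and by 3.06 on array 2 on the log2 scale. For AT3G01570 the same log2 gap over OLEO3 was 3.36 on array 1 and 2.11 on array 2. The wild-type arrays deviated in the same measure by 0.54 for OLEO4 and by 0.38 for AT3G01570, in opposite directions on the 2 arrays. OLEO4 lay above AT3G01570 by 0.61 on phyA phyB array 1 and by 0.95 on array 2, with deviations of 0.17 on the wild-type arrays.

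The seed and microspore type was brighter on phyA phyB array 1 and close to the wild type on array 2. AT3G18570 had intensities of 6468.2 and 512.6 in phyA phyB, against 454.4 and 486.4 in the wild type. The first array was 13.8-fold above the wild-type mean and the second 1.09-fold. Its log2 level averaged 10.93 ± 2.47 in phyA phyB and 9.08 ± 0.06 in the wild type (SD, n = 2 each). The log2 difference of 1.85 (SE 0.89) was smaller than the SD of the phyA phyB arrays and rests on array 1.

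AT2G25890, the other oleosin of the seed and microspore type, had intensities of 9999.9 and 3328.7 in phyA phyB, against 2802.9 and 3198.5 in the wild type. The groups did not overlap, but array 2 of phyA phyB exceeded the brighter wild-type array only narrowly. The log2 level averaged 12.51 ± 1.11 in phyA phyB and 11.58 ± 0.13 in the wild type (SD, n = 2 each). The log2 difference was 0.93 (SE 0.43), with 1.72 on phyA phyB array 1 and 0.15 on array 2. In these samples of whole seedlings, a larger share of cells or seeds holding a transcript and more transcript per cell cannot be told apart, for this gene and for the other members.

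**Figure D2:**
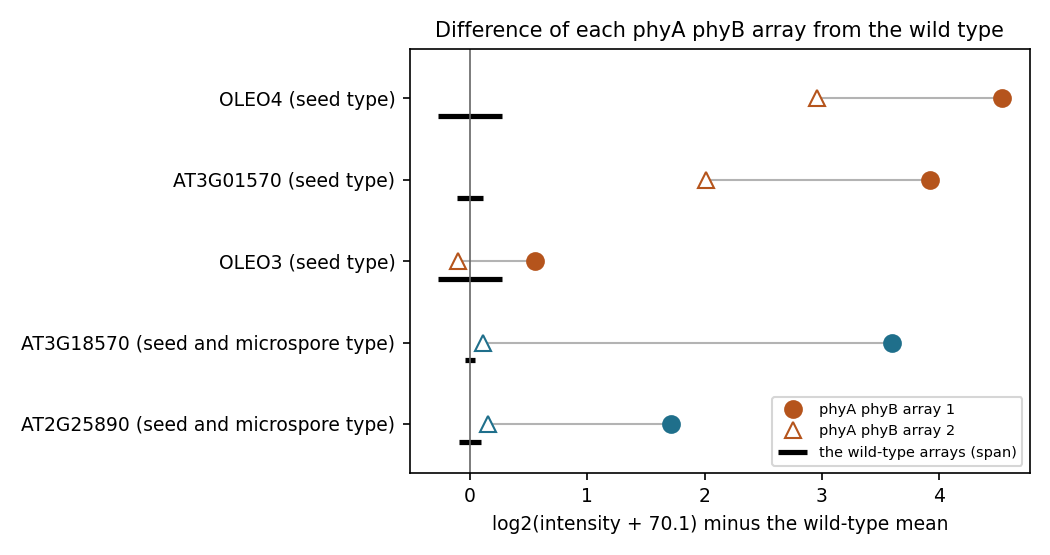
Difference of each phyA phyB array from the wild-type mean for each oleosin, on the scale log2(intensity + 70.1). Filled circles are phyA phyB array 1, open triangles are phyA phyB array 2, and the black bar below each gene spans the 2 wild-type arrays. On array 2 the seed-type genes OLEO4 and AT3G01570 stand at 2.95 and 2.01, whereas AT3G18570 and AT2G25890 stand at 0.11 and 0.15.

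Set side by side on each array, the medians of the types were farthest apart on phyA phyB array 2. There the median log2 difference from the wild-type mean was 2.01 for the 3 seed-type members and 0.13 for the 2 members of the seed and microspore type. On phyA phyB array 1 the medians were 3.92 for the seed type and 2.66 for the seed and microspore type. The gap between the types was thus 1.88 on array 2 and 1.26 on array 1, and over both arrays the median was 2.96 for the seed type and 1.39 for the seed and microspore type. On the wild-type arrays the gap was -0.04 on array 1 and 0.04 on array 2.

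The ranges within the types overlapped on both phyA phyB arrays. On array 1 the seed type ran from 0.55 for OLEO3 to 4.53 for OLEO4, and the seed and microspore type from 1.72 for AT2G25890 to 3.60 for AT3G18570. On array 2 the seed type ran from -0.10 to 2.95 and the seed and microspore type from 0.11 to 0.15, which lay inside the range of the seed type. OLEO3 lay below both members of the other type on both phyA phyB arrays, at -3.04 and -0.21 relative to AT3G18570 and at -1.16 and -0.25 relative to AT2G25890. The separation of the types thus rests on OLEO4 and AT3G01570. With 2 arrays against 2, an exact two-sided permutation test cannot give a p under 0.33, and none was run on these medians.

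All 5 members passed the filter on dim probe sets, which used the mean log2 value over all 4 arrays. AT3G18570 passed it through array 1 of phyA phyB, at 12.67, with 9.19, 9.03 and 9.12 on the remaining arrays. Its ranks and its place in counts over the probe sets tested therefore depend on that array. By limma with Benjamini-Hochberg adjustment over all probe sets tested, 1 of the 5, OLEO4, passed an adjusted p of 0.05 as higher in phyA phyB, where 0.0879% of probe sets did. With array 1 of the wild type left out, 0 of the 5 passed as higher in limma, against 0.0366% of probe sets tested. Without array 1 of phyA phyB 2 of the 5 passed as higher, against 0.227% of probe sets, and without array 2 of phyA phyB 4 of the 5, against 1.59%. Without adjustment, 2 of the 5 were higher at a limma p under 0.05 over all arrays, as were 4.02% of probe sets, and 2 of the 5 without wild-type array 1, as were 3.39%. Both phyA phyB arrays lay above both wild-type arrays for 4 of the 5 members, a pattern held by 20% of the probe sets tested. Since the members were chosen with this comparison in view, nothing is read from these counts. The median log2 difference over all probe sets tested was 0.004.

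Taken array by array, 4 of the 5 members were at least 2-fold above the wild-type mean on phyA phyB array 1, where 4.39% of probe sets tested were. On array 2 the count was 2 of 5, and 1.98% of probe sets tested reached that fold. By rank among the 13648 probe sets, OLEO4 was 14th highest on array 1 and 6th on array 2, and AT3G01570 was 30th and 32nd. AT3G18570 was 44th on array 1 and 5653rd on array 2, and AT2G25890 was 168th and 5077th. OLEO4 and AT3G01570 thus ranked high on both phyA phyB arrays, and the seed and microspore type lay among the bulk of the transcriptome on array 2.

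**Figure D3:**
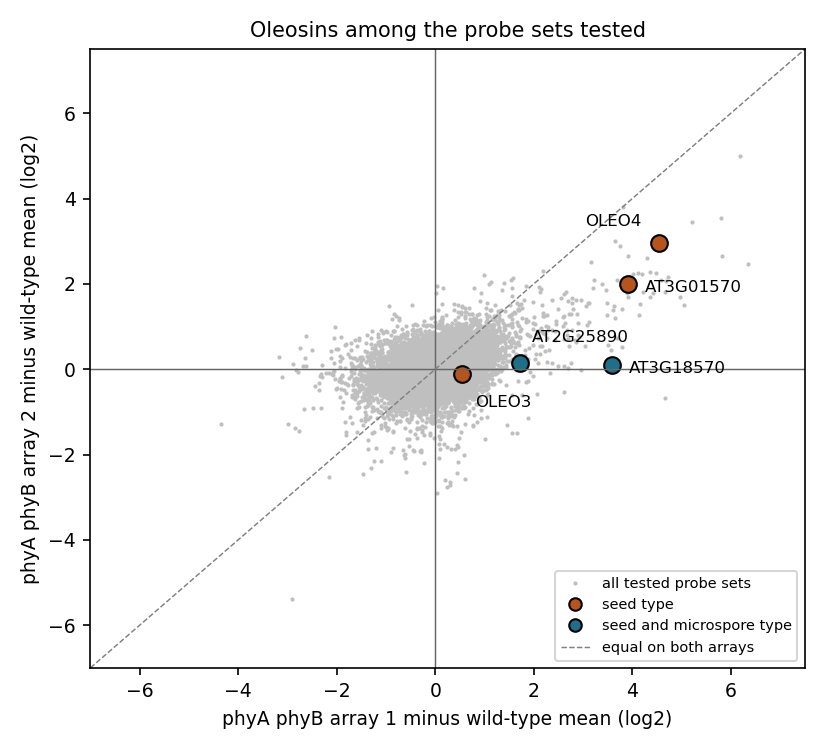
Log2 difference from the wild-type mean on phyA phyB array 1 (horizontal) and on phyA phyB array 2 (vertical) for all 13648 probe sets tested (grey) and the 5 oleosins (coloured by type). The dashed line marks equal values on both arrays. OLEO4 and AT3G01570 lie out along the upper right, AT3G18570 and AT2G25890 lie near the horizontal axis, and OLEO3 lies within the grey cloud.

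The replicate arrays of phyA phyB differed more for oleosins than for most probe sets, a comparison within one genotype. The same arrays entered the genotype differences in view when the members were chosen, so the comparison is a description. AT3G18570 was 12.6-fold brighter on array 1 than on array 2, the 4th highest such difference of the 13648 probe sets. The same ratio was 3.77-fold for AT3G01570, 3.00-fold for OLEO4 and 3.00-fold for AT2G25890, and 1.58-fold for OLEO3. A ratio of at least 2 was thus seen for 4 of the 5 members, and for 4.45% of the probe sets tested. AT3G18570 passed the filter through array 1 of phyA phyB, so its rank and its place in this count depend on that array. The direction was the same for all 5 oleosins, with array 1 the brighter.

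The wild-type arrays were closer to each other for all members, though only slightly for OLEO3. Array 1 over array 2 of the wild type gave 0.671 for OLEO4, 0.859 for AT3G01570, 0.934 for AT3G18570, 0.876 for AT2G25890 and 1.46 for OLEO3. The log2 gap between the wild-type arrays exceeded that of 80.1% of the probe sets tested for OLEO4 and of 79.8% for OLEO3, and of 18.1% for AT3G18570. For OLEO3 the log2 gap was alike in both genotypes, at 0.65 between the phyA phyB arrays and 0.54 between the wild-type arrays. For the other 4 members the gap between the phyA phyB arrays was the wider one, at 1.57 to 3.49.

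M17, a marker of the dry seed, was brighter on both phyA phyB arrays, as were OLEO4 and AT3G01570. AT3G22490, the other such marker with a named probe set, was brighter on array 1 alone, with array 2 between the wild-type arrays. AT3G18570, AT2G25890 and OLEO3 were near the wild type on array 2. Of 12 marker genes considered for dry or ungerminated seed, 2 had a named probe set, and the defining storage protein genes were not among them. M17, which encodes a late embryogenesis abundant protein, had intensities of 95816.2 and 28597.3 in phyA phyB, against 3572.4 and 4165 in the wild type. AT3G22490, another gene of that class, had 3840.3 and 134.4 in phyA phyB, against 309.6 and 22.7 in the wild type, and did not pass the filter. The summed intensity of both markers was 99656.5 and 28731.7 in phyA phyB, against 3882 and 4187.7 in the wild type. M17 made up most of this sum on every array, so the sum says little about AT3G22490. The part of seeds that had not germinated in the oleosin values was not tested.

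Genes were ranked by the root mean square distance of their profile over the 4 arrays from the mean profile of each oleosin type. Profiles were log2 values, each centred on its wild-type mean. The seed-type members were unlike, so a gene near their mean is not thereby near any single member. Only probe sets naming a single gene are listed, and some probe sets without such a name were nearer. The named genes nearest to the mean of the 3 seed-type members were AT3G53040 (distance 0.12), AT4G18650 (0.17), AT2G21820 (0.20) and the plant defensin gene LCR67 (0.21). AT3G54940, AT5G07330, the dehydrin gene LEA (AT2G21490) and AT5G66780 followed at distances of 0.26 to 0.30. Among all 13643 probe sets outside the members, AT3G53040 ranked 2nd and AT5G66780 16th. AT3G53040 had intensities of 10141 and 4275 in phyA phyB, against 1449.1 and 1255.6 in the wild type. The named genes nearest to the mean of the seed and microspore type were AT5G05320 (0.04), AT1G47980 (0.19), AT3G14880 (0.20) and the beta-glucosidase gene BGLU19 (0.22). AT5G05320 had intensities of 11118.4 and 1869 in phyA phyB, against 1665.1 and 1874 in the wild type, so that it too was brighter on array 1 alone.

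Because the 3 seed-type members differed, the nearest genes of each single member were also taken, a choice made after the values had been seen. The named gene nearest to OLEO4 was M17 (distance 0.13), followed by PAP85 (0.34), a vicilin-like storage protein gene, and the cupin gene AT2G28490 (0.38). For AT3G01570 they were AT1G54870 (0.05) and AT1G27461 (0.06). AT1G54870 had intensities of 73610.6 and 19201.6 in phyA phyB, against 4109.5 and 5242 in the wild type. The nearest named gene to AT3G18570 was M10 (0.24), with 25181.4 and 2547.4 in phyA phyB, against 1564.3 and 1944 in the wild type. OLEO3 had AT5G02710 as its nearest named gene (0.02), with 2608.8 and 1608.7 in phyA phyB, against 2075.4 and 1454.9 in the wild type. For AT2G25890 it was AT1G22600 (0.08), with 3590.6 and 1206.9 in phyA phyB, against 961.1 and 1018.2 in the wild type.

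Between members, the closest profiles were those of OLEO4 and AT3G01570, at a distance of 0.58. Other probe sets nearer still numbered 15 for OLEO4 and 37 for AT3G01570. AT3G18570 and AT2G25890 were 0.94 apart, with 96 probe sets nearer to AT3G18570 and 7694 nearer to AT2G25890. OLEO3 was 2.54 from OLEO4 and 2.00 from AT3G01570, and lay nearer to AT2G25890, at 0.65, although 11067 probe sets were nearer still to OLEO3. These distances describe 4 arrays and carry no test.

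Genes of oil bodies and lipid droplets, of oil synthesis and breakdown, tapetal oleosin-domain genes and seed maturation regulators were taken from lists by function. Of 72 such genes, 16 had a named probe set, 12 of which passed the filter, and by limma with Benjamini-Hochberg adjustment over all probe sets 0 rose and 0 fell, where 0.0879% and 0.00733% of all probe sets tested did. At an unadjusted p under 0.05, 2 were higher, AT3G14360 and EEL, and 0 lower, where 4.02% of all probe sets tested were higher and 3.22% lower. The other 2 seed-type oleosins of the list, the 8 tapetal oleosin-domain genes and the 8 steroleosin genes had no probe set naming a single gene and were not analysed here. Of the caleosins, calcium-binding proteins of oil bodies, 2 of 7 had a probe set, and both were too dim for the test. AT1G23240 had intensities of 204.7 and 609.6 in phyA phyB, against 320.8 and 452 in the wild type. AT1G23250 had 313.6 and 358.4 in phyA phyB, against 175.7 and 61.2 in the wild type.

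Of 8 genes for lipid droplet-associated proteins, their interactor, seipins and the PUX10 adaptor, 5 were tested. Their median log2 difference of 0.05 was close to that of all probe sets tested. The seipin genes were not among the 5: AT5G16460 was too dim for the test, and AT1G29760 and AT2G34380 had no named probe set. No caleosin or steroleosin was tested either, so the median does not cover those proteins of oil bodies. The lowest was AT1G67360, a lipid droplet-associated protein gene, with intensities of 2425.1 and 3985.8 in phyA phyB, against 4794.5 and 4257.5 in the wild type. Both phyA phyB arrays lay below the wild type, at a log2 difference of -0.53 (SE 0.29). The highest was AT4G10790, for the adaptor that helps to extract oleosins from oil bodies for degradation, with 3375.3 and 2305.7 in phyA phyB, against 1945.6 and 3074.6 in the wild type, where the groups overlapped.

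Of 16 genes for oil breakdown, fatty acid beta-oxidation and the glyoxylate cycle, 5 were tested, with a median log2 difference of -0.04. The highest was AT3G14360, an oil body lipase gene, with intensities of 2302.4 and 2062.1 in phyA phyB, against 918.4 and 1121.9 in the wild type. Its phyA phyB arrays agreed closely, at 1.13 and 0.97 above the wild-type mean, with a log2 difference of 1.05 (SE 0.30) that did not pass the threshold. The lowest was SDP1, the main triacylglycerol lipase of germinating seeds, with 2935.8 and 5038.7 in phyA phyB, against 4742.4 and 6122.7 in the wild type. SDP1-LIKE, named after its values were seen, had 1020.3 and 1014.6 in phyA phyB, against 669.3 and 502.4 in the wild type.

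Of 13 genes of triacylglycerol synthesis 1 had a named probe set, AT3G44830, and its intensities of 394.4 and 30.2 in phyA phyB, against 24.3 and 205.4 in the wild type, were too dim for the test. Of 10 seed maturation regulators 2 were tested. The bZIP gene EEL had intensities of 5301 and 2781.8 in phyA phyB, against 1150.6 and 1436.6 in the wild type. The bZIP gene BZIP53 had 5600.3 and 6201.7 in phyA phyB, against 7470.7 and 7449 in the wild type. EEL was higher and BZIP53 lower on both phyA phyB arrays, and neither passed the threshold over all 4 arrays. EEL passed when array 2 of phyA phyB was left out, as did 1.59% of all probe sets tested in that direction.

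**Figure D4:**
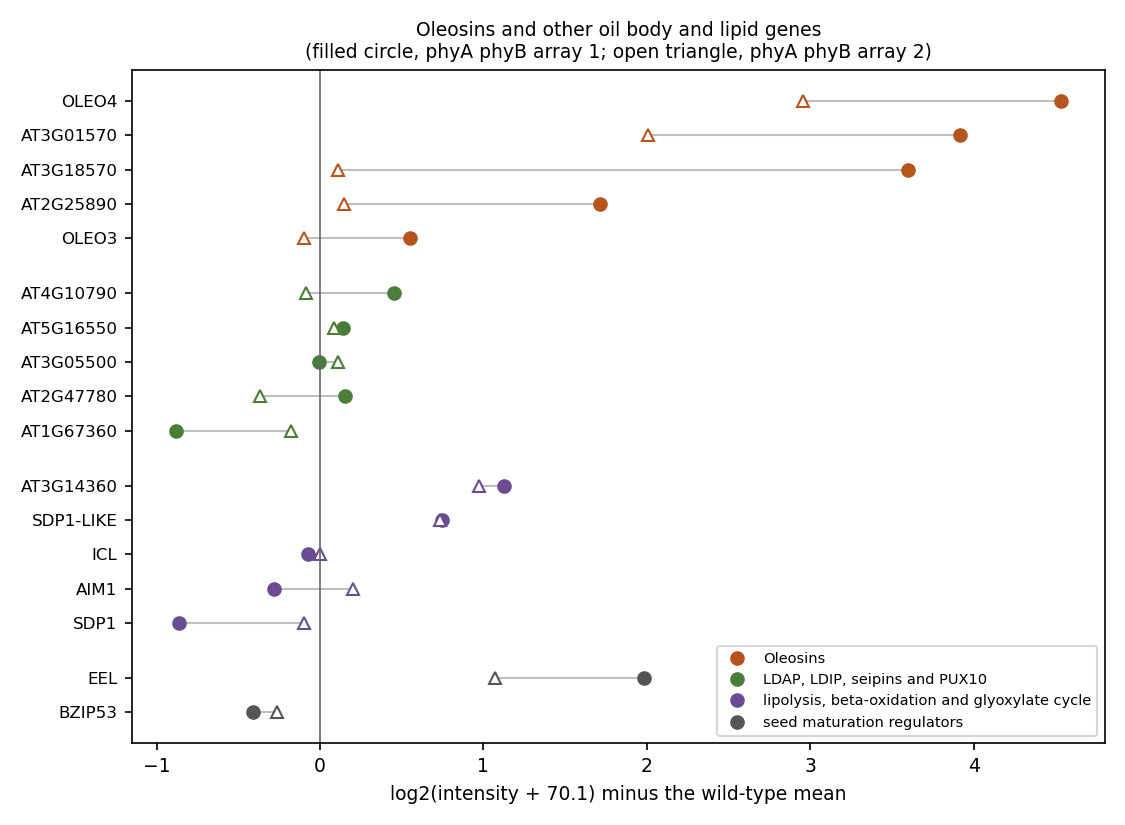
Difference of each phyA phyB array from the wild-type mean, on the scale log2(intensity + 70.1), for the 5 oleosins and the 12 tested genes of the lists for lipid droplets, oil breakdown and seed maturation regulators, sorted within each list. Filled circles are phyA phyB array 1 and open triangles phyA phyB array 2. On array 1, OLEO4, AT3G01570 and AT3G18570 exceed all 12 list genes, and AT2G25890 and OLEO3 lie within their range. On array 2, OLEO4 and AT3G01570 exceed all 12, and AT3G18570, AT2G25890 and OLEO3 lie within their range.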

How the data were processed

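The deposited values were 1 intensity per probe set for 4 arrays. Per the labels' protocols, RNA came from an RNeasy plant mini kit and was labelled as Affymetrix instructs. Software, scaling target and detection calls are not given in the sources used here. Trimmed means (2% at each end) differed by 0.0946% between arrays, so the intensities had been scaled by the authors, and this scaling was kept. Values were taken as log2(intensity + 70.1), the pseudocount being the 10th percentile, so log2 differences understate changes of dim probe sets. The brightest 60% by mean log2 value entered limma 3.58.1 (R 4.3.3; lmFit, eBayes with trend, Benjamini-Hochberg over 13648 probe sets). The number of arrays limits the precision. The procedure was tested on simulated data.

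Names came from the platform annotation, updated through RefSeq (TAIR10.1). A single gene was listed for 13513 probe sets, of which 13436 matched RefSeq, several for 503 and none for 8730. A gene with several probe sets was represented by the brightest. Named were all members, every caleosin with a probe set, and the highest and lowest gene of each list. Also named were the 8 and 4 genes with the nearest profiles to the 2 types, among probe sets listing a single gene. Members and lists were chosen with earlier results of these data known. The label of wild-type array 1 gives no replicate number, so its number is only a name. The labels do not say whether replicates were separate cultures, so the spread between these samples is possibly technical. The SDs are those of the 2 arrays of a genotype. The SEs and p-values of limma are moderated, drawing also on the spread of all probe sets tested (2 residual and 9.2 total degrees of freedom). A member's SE can therefore be smaller than its own SDs would give. Alternatives covered normalization, pseudocount, filter, variance model and leaving out each array. Matplotlib 3.10.9 drew the figures.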

Additional observations from a re-analysis of the deposited data

How the results depend on the processing

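The median log2 differences of the oleosin types stayed near their values under quantile, median and cyclic loess normalization and both other pseudocounts, at 2.89 to 3.03 for the seed type, 1.24 to 1.45 for the seed and microspore type and 1.53 to 1.66 for the gap between them. With each array left out they ran from 2.01 to 3.92, from 0.129 to 2.66 and from 1.26 to 1.88. The single members kept their sign, except OLEO3, which ran from -0.101 without phyA phyB array 1 to 0.553 without phyA phyB array 2. Without phyA phyB array 1 the log2 difference was 0.109 for AT3G18570 and 0.149 for AT2G25890.

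The count of 13 probe sets past the threshold became 3 with dim probe sets kept in, which enlarges the number tested, 1 under eBayes with no trend and 988 at an unadjusted p under 0.05, and the cause of the second was not tested. Leaving out each array gave 6 to 422, and a count of list genes past the threshold of 0 to 1, the 1 being EEL without phyA phyB array 2. A left-over lone array was then assumed to vary like the other group. No member passed without a filter, by either other variance model or without wild-type array 1 (lowest adjusted p 0.0528, 0.382, 0.0809 and 0.0867 in limma). No paired analysis was possible because the labels number only 1 wild-type array, so that fewer than 2 numbers are shared. No signal over background was given, so what dim probe sets show is limited.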
